A study of Mus musculus with 24 samples.

Results

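Livers of mice fed a cottonseed oil diet were compared with livers of mice fed either of a pair of other oil diets. The series measured RNA in livers of male wild-type (WT) C57BL/6 mice after 6 weeks on chow, on a diet enriched in cottonseed oil (CSO), in olive oil (OO) or in safflower oil (SFO). The labels give no age, no fat content of the diets, no pooling of animals and no hour of collection, and chow differs from the oil diets in more than the oil. Libraries were made with QuantSeq, which reads the 3′ ends of mRNAs, so that levels are given as CPM (counts scaled to the size of the library) of one gene across libraries and are not compared between genes. The comparison used 6 CSO, 6 OO and 5 SFO libraries, 17 of the 23 with counts, and the 6 chow libraries served to place each gene. Total counts ran from 5428649 to 14930305 per library. Every one of the 11971 genes tested was compared between CSO and the OO and SFO mean, and the genes described are those that passed an adjusted p of 0.05 with CSO on the same side of OO and of SFO. Nothing in the labels says that libraries of a diet came from separate cages or days, so the p-values measure the spread between these libraries, which may in part be technical. Of the 11 hepatocyte markers tested, 1 (Fgb) was called, lower in CSO, where 0.384% of all genes tested were lower. Their summed level was 122300 to 164200 CPM in CSO and 130800 to 206200 CPM in OO and SFO. Transferrin, listed as Tf, stands in the counts as Trf and is in neither value, and Trf was also called lower. In whole liver, fewer cells of a type and less RNA per cell cannot be told apart.

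Cottonseed oil is rich in linoleic and palmitic acid and carries small amounts of cyclopropenoid fatty acids, which are known to inhibit stearoyl-CoA desaturase. Olive oil is mostly oleic acid, and safflower oil is known in a linoleic and an oleic form, of which the labels name neither. In hepatocytes, fatty acids and their derivatives bind the nuclear receptor PPAR alpha, which drives genes for ω-hydroxylation in the endoplasmic reticulum, for β-oxidation in peroxisomes and mitochondria, and for the thioesterases that release fatty acids from coenzyme A. Many of these genes are also under circadian and feeding control in liver.

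CSO differed from the OO and SFO mean in 87 genes, 0.727% of those tested, by the quasi-likelihood test of edgeR with p-values adjusted after Benjamini and Hochberg. Of these, 41 were higher (0.342% of those tested) and 46 lower (0.384%) in CSO. With scaling by library totals alone the split was 73 higher and 28 lower among 101 calls. All 87 lay on the same side of OO and of SFO, as did 7063 of the 11971 genes tested. A gene chosen for its difference from the mean will mostly lie so, and the 87 were chosen that way. Against each oil on its own the background was 1.09% for OO and 0.493% for SFO, and 20 genes (0.167%) were called against both. The 10 higher ones included Cyp4a14, Acot1, Pex11a, Por, Cyp4a12b, Cyp4a12a, Ces1d, Retsat and Gpt2. The 10 lower ones were Chka, Slc30a10, Cldn1, Clpx, Insig2, Camk1d, Atf5, Gldc, Mlxipl and Fgg. Of the other called genes, 32 were called against OO alone, 15 against SFO alone and 20 against neither alone. All 6 CSO libraries lay beyond all 11 OO and SFO libraries for 19 of the genes tested (0.159%), and 17 of those were among the 87, 10 above and 7 below. Left-out libraries moved these counts: without CSO 4, CSO 5 or CSO 6 the calls fell to 53, 57 and 56, and without CSO 6 the genes called against both oils fell to 11. Of those 20 genes, 19 kept their call against the mean with any 1 of the 23 libraries left out, and Mlxipl did not.

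**Figure D1:**
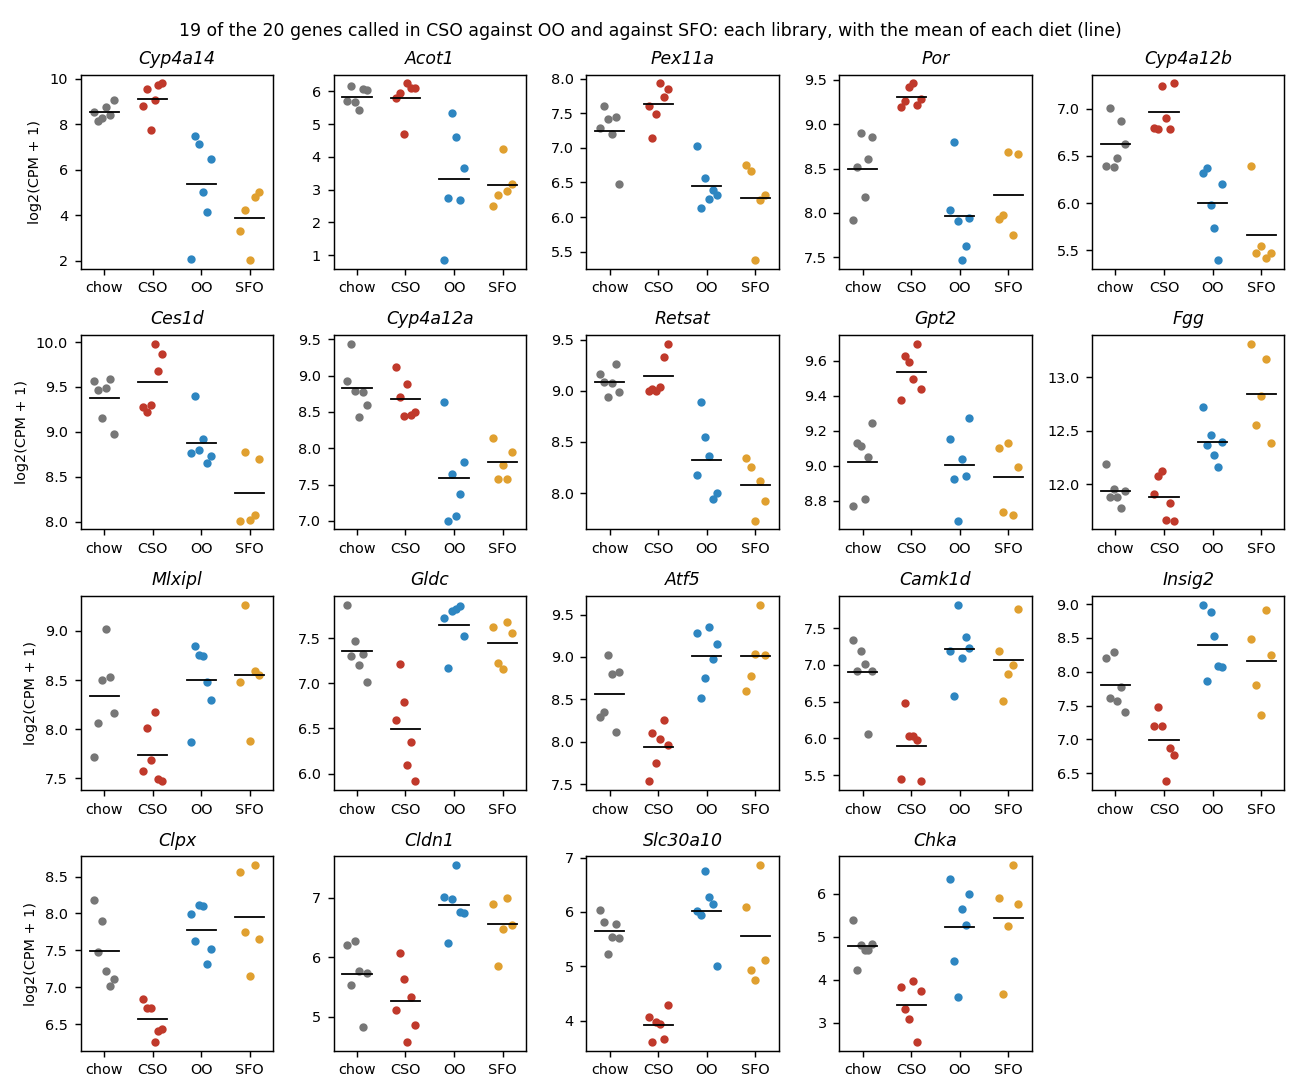
Level of 19 of the 20 genes called in CSO against OO and against SFO, as log2(CPM + 1) in each library (points) with the mean of each diet (line). Chow lies near CSO for Cyp4a14, Acot1, Retsat, Ces1d and Fgg, and near OO and SFO for Gpt2, Gldc and Slc30a10.

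Of 25 tested PPAR alpha targets, 9 were called higher and 0 lower against the OO and SFO mean, where 0.342% and 0.384% of all genes tested were. The median log2 fold change of the list was 0.83, against -0.04 over all genes tested. Against OO alone 4 were higher (median 0.51), where 0.251% of all genes tested were, and against SFO alone 9 (median 0.84), where 0.284% were. The summed level of the list was 17460 to 22350 CPM in CSO, 11890 to 18230 CPM in OO, 11680 to 12910 CPM in SFO and 13110 to 16030 CPM in chow, so that CSO and OO overlapped and CSO and SFO did not. Without any 1 library, 7 to 11 members were called higher and the median stayed between 0.67 and 0.85.

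The largest change among genes with a log2 CPM averaging 1 or more was that of Cyp4a14, a microsomal ω-hydroxylase of fatty acids. In CSO, Cyp4a14 had a lowest, median and highest value of 217, 636 and 888 CPM, against 3.22, 59.3 and 180.1 CPM in OO, 284, 356 and 530.5 CPM in chow, and 8.82, 17.6, 3.1, 27.2 and 31.8 CPM in the 5 SFO libraries. No OO or SFO library reached the lowest CSO library, and the chow libraries lay within the CSO range. The log2 fold change was 4.06 ± 0.58 (SE) against the OO and SFO mean (edgeR adjusted p = 0.00066), 3.0 against OO and 5.12 against SFO. Cyp4a10, a close paralogue with the same activity, was at 190.2, 237 and 297 CPM (lowest, median, highest) in CSO, 10.1, 104 and 218 CPM in OO and 41.8, 62.2, 15.7, 36.2 and 29.4 CPM in the 5 SFO libraries. It differed from the OO and SFO mean by 1.94 ± 0.41 (adjusted p = 0.027) and was called against SFO but not against OO (adjusted p = 0.24). Cyp4a genes share sequence, so that their separate counts are uncertain.

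Acot1 encodes a cytosolic thioesterase that cuts long-chain acyl-CoA into free fatty acid and coenzyme A. In CSO, Acot1 had a lowest, median and highest value of 24.8, 63.9 and 75.0 CPM, against 0.806, 8.69 and 40.0 CPM in OO, 42.3, 58.0 and 70.2 CPM in chow, and 4.61, 6.1, 17.8, 6.76 and 7.96 CPM in the 5 SFO libraries. The lowest CSO library, CSO 3, lay within the OO range, and the other 5 CSO libraries lay above every OO and SFO library. The log2 fold change was 2.38 ± 0.41 (adjusted p = 0.00079), and CSO and chow differed by 0.03 ± 0.48. Acot4, a peroxisomal thioesterase, ranged from 28.6 to 87.3 CPM in CSO and from 1.08 to 24.8 CPM in OO and SFO without overlap, a log2 fold change of 1.85 ± 0.45 (adjusted p = 0.03) that was called against neither oil alone. Acot genes lie in a cluster of close copies, and their counts carry the same uncertainty as those of Cyp4a.

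Pex11a, whose product drives the division of peroxisomes, was at 140.4, 204 and 243 CPM (lowest, median, highest) in CSO, 69.3, 81.1 and 129 CPM in OO and 107, 100.5, 40.6, 75.0 and 78.8 CPM in SFO. The CSO libraries all lay above the others, with a log2 fold change of 1.25 ± 0.18 (adjusted p = 2.2e-05). Acaa1b, a peroxisomal thiolase, and Aldh3a2, which oxidises fatty aldehydes, rose by 0.95 and 0.83 (adjusted p = 0.0046 and 0.00034). Both were called against SFO (1.5 and 1.39) and not against OO (0.39 and 0.28), and SFO itself lay below OO by 1.11 ± 0.22 and 1.11 ± 0.18 (adjusted p = 0.015 and 0.00071). Vnn1, a pantetheinase that recycles the vitamin part of coenzyme A, rose by 1.21 ± 0.24 (adjusted p = 0.0026). Library OO 2, at 129 CPM, lay within its CSO range of 89.2 to 179 CPM, and Vnn1 was not among the genes called against both oils. Pex26, which anchors the peroxisomal import machinery, rose by 1.31 ± 0.30 (adjusted p = 0.019) and lost its call in 3 of 23 left-out libraries. It was not among the genes called against both oils either.

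**Figure D2:**
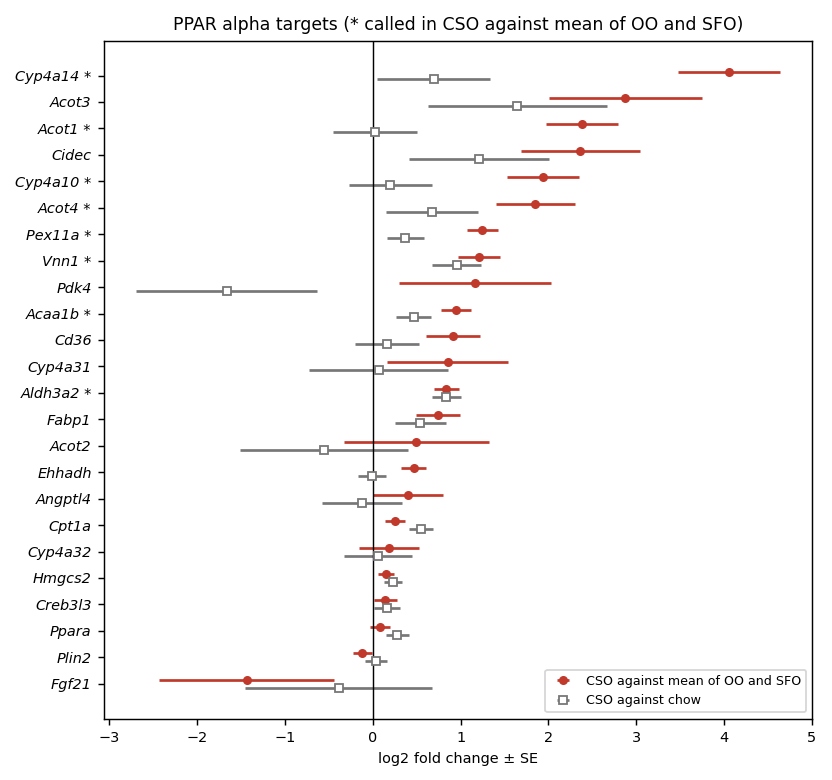
Log2 fold change ± SE of 24 of the 25 tested PPAR alpha targets in CSO against the OO and SFO mean (filled) and against chow (open), with an asterisk on the genes called in the first comparison. The points of Aldh3a2 nearly coincide in both comparisons, while Acot1 and Cyp4a10 lie above 0 in the first comparison and near 0 against chow.

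Other members of the list did not pass the test against the OO and SFO mean. Cd36, a fatty acid transporter, had a log2 fold change of 0.91 ± 0.31 (adjusted p = 0.22), Cpt1a, the gate of mitochondrial import, 0.25 ± 0.12 (adjusted p = 0.46), and Ppara itself 0.08 ± 0.12 (adjusted p = 0.91). Plin2, a lipid droplet coat protein, and the hormone Fgf21 had values below 0, -0.12 ± 0.11 and -1.44 ± 1.0. Of 16 tested genes of mitochondrial β-oxidation, 1 was called higher, where 0.342% of all genes tested were. It was Eci1, an isomerase for unsaturated chains (0.83 ± 0.21, adjusted p = 0.037). That call was lost in 10 of the 23 left-out libraries. The log2 fold changes of all 16 were above 0, with a median of 0.34, where 5509 of the 11971 genes tested were above 0. Acsl1 and Slc27a2, which activate long and very long fatty acids with coenzyme A, were named after their values were seen and rose by 0.50 ± 0.10 and 0.43 ± 0.10 (adjusted p = 0.0027 and 0.02).

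Por, Retsat and Ces1d were each called higher in CSO against OO and against SFO. Por encodes the reductase that passes electrons to all microsomal P450 enzymes. In CSO, Por had a lowest, median and highest value of 585, 618 and 704 CPM, against 176, 242 and 446 CPM in OO, 241, 377 and 478 CPM in chow, and 244, 250.3, 410.3, 215 and 405 CPM in the 5 SFO libraries. All 6 CSO libraries lay above every library of the other 3 diets. The log2 fold change was 1.17 ± 0.16 against the OO and SFO mean (adjusted p = 1.6e-05) and 0.77 ± 0.19 against chow (adjusted p = 0.043). Retsat, which saturates retinol, was at 509, 522 and 701 CPM (lowest, median, highest) in CSO, 245, 308 and 475 CPM in OO, 325, 305, 212, 277 and 242 CPM in SFO and 490.3, 540.5 and 614 CPM in chow. CSO and chow overlapped, and all OO and SFO libraries lay below the lowest CSO library (0.93 ± 0.13, adjusted p = 1.6e-05). Ces1d, a carboxylesterase that hydrolyses triglyceride, was at 597, 723 and 1007 CPM in CSO and 504, 712 and 771 CPM in chow, against 257 to 672 CPM over OO and SFO. Library OO 2, at 671.7 CPM, was the only one of the 11 OO and SFO libraries within the CSO range, and the log2 fold change was 0.96 ± 0.13 (adjusted p = 1.6e-05). Cyp4a12a and Cyp4a12b, male-typical ω-hydroxylases, rose by 0.95 ± 0.17 and 1.11 ± 0.19 (adjusted p = 0.0017 and 0.00039). Ces and Cyp4a12 genes also have near-identical copies, and their counts are uncertain in the same way.

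Gpt2, the mitochondrial alanine aminotransferase, was at 663, 746 and 828.8 CPM (lowest, median, highest) in CSO, 411, 508 and 618 CPM in OO, 549, 426, 559.9, 419.9 and 509.9 CPM in SFO and 437, 542 and 606 CPM in chow. The 6 CSO libraries lay above all 17 libraries of the other diets, and the log2 fold change was 0.56 ± 0.11 against the OO and SFO mean (adjusted p = 0.0021) and 0.51 ± 0.13 against chow (adjusted p = 0.043). Gpat3, an acyltransferase of glycerolipid synthesis, rose by 3.16 ± 0.61 (adjusted p = 0.0023) and was called against OO (4.08) and not against SFO (2.24). Ucp2, a carrier of the inner mitochondrial membrane, rose by 1.83 ± 0.39 (adjusted p = 0.0081), and Pdxk, the kinase that makes the active form of vitamin B6, by 1.2 ± 0.28 (adjusted p = 0.02). Slc16a5, of the monocarboxylate transporter family, rose by 2.6 ± 0.67 (adjusted p = 0.048), a call lost in 17 of the 23 left-out libraries. Gys2, the liver glycogen synthase, rose by 0.81 ± 0.19 (adjusted p = 0.027), a call lost in 7 of them and with the oil diets alone (adjusted p = 0.061). Ppp1r3c, a subunit that carries phosphatase to glycogen, fell by 2.36 ± 0.43 (adjusted p = 0.0017). Gys2 and Ppp1r3c were the 2 called members of 20 tested glycogen and glucose genes, where 0.727% of all genes tested were called. Gys2 was not called against OO alone, and Ppp1r3c was not called against SFO alone.

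Among genes lower in CSO, Clpx and Slc30a10 were below both oils and below chow. Clpx encodes the unfoldase of a mitochondrial matrix protease, which also acts on the first enzyme of haem synthesis. In CSO, Clpx had a lowest, median and highest value of 75.5, 94.9 and 114 CPM, against 158, 225 and 275 CPM in OO, 129, 163 and 289 CPM in chow, and 377, 213, 141, 402 and 201 CPM in the 5 SFO libraries. No CSO library overlapped any other library. The log2 fold change was -1.37 ± 0.20 against the OO and SFO mean (adjusted p = 2.5e-05) and -0.98 ± 0.22 against chow (adjusted p = 0.019). Slc30a10 exports manganese from hepatocytes into bile. In CSO, Slc30a10 had a lowest, median and highest value of 11.2, 14.6 and 18.6 CPM, against 31.3, 66.7 and 107 CPM in OO, 36.7, 49.9 and 64.5 CPM in chow, and 67.3, 29.7, 25.9, 115 and 33.7 CPM in the 5 SFO libraries. All 6 CSO libraries were below all 17 others, with a log2 fold change of -2.07 ± 0.31 against the OO and SFO mean (adjusted p = 3.6e-05) and -1.8 ± 0.33 against chow (adjusted p = 0.0015).

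Gldc, the decarboxylase of the glycine cleavage system, was at 59.3, 88.0 and 148 CPM (lowest, median, highest) in CSO, 143, 216 and 230.3 CPM in OO, 196, 148, 142, 203 and 187 CPM in SFO and 129, 158 and 233 CPM in chow. Of the CSO libraries, 1 lay within the range of the other diets and 5 lay below it, a log2 fold change of -1.01 ± 0.18 (adjusted p = 0.00057). Camk1d, a calcium and calmodulin dependent kinase, fell by 1.26 ± 0.21 against the OO and SFO mean (adjusted p = 0.00026) and by 1.02 ± 0.23 against chow (adjusted p = 0.024). Elovl3, an elongase of saturated and monounsaturated very long chains, was at 38.8, 82.6 and 117 CPM in CSO and 95.5 to 402 CPM over OO and SFO, and fell by 1.53 ± 0.33 (adjusted p = 0.027). Elovl3 was not called against SFO alone, nor against the mean by voom (adjusted p = 0.094). Coq8a, needed for coenzyme Q synthesis and named after its values were seen, fell by 0.89 ± 0.16 (adjusted p = 0.00066), by 1.36 against OO and, not called, by a log2 value of -0.42 against SFO.

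Chka, Insig2, Atf5 and Mlxipl were lower in CSO than in each other oil, while neither CSO nor the OO and SFO mean was called against chow by edgeR. In the authors' deposited table of CSO against chow, Insig2 (log2 fold change -0.83, adjusted p = 0.036) and Atf5 (-0.66, 0.028) passed. Chka (-1.4, 0.051) and Mlxipl (-0.64, 0.13) did not pass in the authors' deposited table. Atf5 encodes a transcription factor of the integrated and mitochondrial stress responses. In CSO, Atf5 had a lowest, median and highest value of 184, 254 and 305 CPM, against 365, 535 and 654 CPM in OO, 277, 385 and 519.5 CPM in chow, and 386, 438, 522, 784 and 519.9 CPM in the 5 SFO libraries. CSO lay below all OO and SFO libraries and overlapped chow, with a log2 fold change of -1.09 ± 0.15 (adjusted p = 1.6e-05). It was the 1 called member of 16 tested integrated stress response genes, where 0.384% of all genes tested were lower. Of the others, Atf4 had -0.19 ± 0.26 (adjusted p = 0.92). Insig2 holds the SREBP precursors in the endoplasmic reticulum, and its transcript fell by 1.34 ± 0.21 (adjusted p = 0.00019), from 164 to 508 CPM over OO and SFO to 82.4 to 178 CPM in CSO. Chka, the choline kinase that opens phosphatidylcholine synthesis, was at 4.89, 10.7 and 14.8 CPM (lowest, median, highest) in CSO, 11.2, 43.3 and 80.1 CPM in OO and 59.1, 11.7, 37.1, 100.2 and 52.9 CPM in SFO. The lowest library of OO and of SFO lay within the CSO range, and the log2 fold change was -2.21 ± 0.40 (adjusted p = 0.00067). Mlxipl encodes ChREBP, which drives glycolytic and lipogenic genes in response to glucose, and fell by 0.82 ± 0.18 (adjusted p = 0.012), with 176 to 288 CPM in CSO and 233 to 615 CPM over OO and SFO. Angptl8, an inhibitor of lipoprotein lipase induced by feeding, fell by 1.92 ± 0.42 (adjusted p = 0.0096), and was called against OO but not against SFO (adjusted p = 0.098).

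Promoter sequence was looked at for the called genes in RefSeq windows of GRCm38.p6 that run from 250 bases before to 50 bases after a gene's start. A window was found for 30 of the 41 higher and 40 of the 46 lower genes. The letters TGATGCAA, the core of the amino acid response element bound by ATF4 with C/EBP factors, were searched on both strands after the gene list was seen. They occurred in 294 of all 32851 windows (0.895%), in 0 of the 30 higher genes and in 3 of the 40 lower genes (7.5%), Insig2, Angptl8 and Tars, the last a threonyl-tRNA synthetase that fell by 0.88 ± 0.19 (adjusted p = 0.0076). These 60-base stretches are shown because they carry that match, in capitals, on the gene's strand (Tars holds it as its reverse complement). The Insig2 stretch is chr1:121328169-121328228 on the minus strand, that of Angptl8 is chr9:21835354-21835413 on the plus strand and that of Tars is chr15:11399640-11399699 on the minus strand.
Insig2: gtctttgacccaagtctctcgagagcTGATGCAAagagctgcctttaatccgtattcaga
Angptl8: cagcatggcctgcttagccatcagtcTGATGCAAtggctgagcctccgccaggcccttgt
Tars: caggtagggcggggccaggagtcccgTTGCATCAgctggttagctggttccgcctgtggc
The match starts 178, 130 and 15 bases before the gene's start in that order. The E-box CACGTG, bound by CLOCK with BMAL1, occurred in 4 of the 30 higher genes (13.3%), 6 of the 40 lower genes (15%) and 7.15% of all windows. The DR1 element, the direct repeat with a 1-base gap that PPAR alpha binds with RXR, searched in its perfect form on both strands, occurred in no window of a called gene and in 13 of all 32851 (0.0396%). The shares of called genes count genes, while those over all windows count every window, also those of genes not tested here. These matches describe letters only, and windows of Cyp4a14 and Ces1d were not among those found.

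The 3 fibrinogen chains were lower in CSO than in the OO and SFO mean, and none was called in CSO against chow. In CSO, Fgg had a lowest, median and highest value of 3242, 3745 and 4458 CPM, against 4594, 5329 and 6759.7 CPM in OO, 3517, 3857 and 4663 CPM in chow, and 10135, 6005, 7239.8, 9177 and 5337 CPM in the 5 SFO libraries. CSO lay below every OO and SFO library and overlapped chow, and Fgg fell by 0.76 ± 0.11 against the OO and SFO mean (adjusted p = 1.6e-05). Against chow it differed by -0.05 ± 0.12 in CSO and by 0.70 ± 0.11 in the OO and SFO mean (adjusted p = 2.8e-05). SFO was above OO by 0.48 ± 0.12 (adjusted p = 0.037). Fga and Fgb, the other chains, fell by 0.66 ± 0.12 and 0.64 ± 0.11 (adjusted p = 0.0025 and 0.00033), each called against SFO and not against OO. Lbp, which carries bacterial lipopolysaccharide, fell by 1.05 ± 0.24 (adjusted p = 0.02) and was not called against OO alone. These 4 were the called members of 31 tested acute phase genes, where 0.384% of all genes tested were lower. An unadjusted edgeR p under 0.05, in either direction, was found for 23 of the 31 and for 1207 of the 11971 genes tested. Of the 31, 3 had a log2 fold change above 0, and the median was -0.55, -0.26 against OO and -0.82 against SFO. DESeq2, which called more genes than edgeR over all genes, called 10 of the 31, and without any 1 library edgeR called 3 to 10 lower. Summed over the list, CSO held 22020 to 28530 CPM, chow 19910 to 26160, OO 26130 to 35190 and SFO 27770 to 58660. Markers of Kupffer cells and macrophages summed to 95.9 to 247.7 CPM in CSO and 123.4 to 387.2 CPM in OO and SFO. Of these markers, 0 of 14 tested were called by edgeR, DESeq2 or voom. An unadjusted p under 0.05 was found for 2 of these markers, beside the same 1207 of 11971. Their part in the acute phase values was not tested.

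Cldn1, a tight junction protein, was at 22.8, 36.4 and 65.9 CPM (lowest, median, highest) in CSO, 74.9, 116 and 186 CPM in OO, 118, 57.0, 88.5, 127 and 92.7 CPM in SFO and 27.5, 52.9 and 76.1 CPM in chow. Of the SFO libraries, 1 lay within the CSO range, and the log2 fold change was -1.44 ± 0.25 (adjusted p = 0.00039). Tjp3, another tight junction protein, fell by 1.28 ± 0.32 (adjusted p = 0.038) and lost its call in 9 of 23 left-out libraries. Ccn1, a matrix protein induced early by growth signals, fell by 2.04 ± 0.52 (adjusted p = 0.048), and lost its call in 20 of them. Pnp, of purine salvage, and Avpr1a, the hepatic vasopressin receptor, fell by 1.26 ± 0.31 and 1.54 ± 0.39 (adjusted p = 0.03 and 0.041), calls lost in 8 and 10 of them.

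Some differences from the mean rested on OO. Abcb11, the bile salt export pump, and Hsd3b7, an early enzyme of bile acid synthesis, fell by 0.79 ± 0.13 and 0.72 ± 0.12 (adjusted p = 0.00013 and 0.00013) and were the 2 called members of 22 tested bile acid genes, where 0.384% of all genes tested were lower. Against OO they fell by 1.12 and 1.07 (adjusted p = 2e-06 and 1.1e-06), while against SFO the log2 fold changes were -0.46 and -0.37 and did not pass. Tested directly, SFO was below OO for both, by 0.66 ± 0.15 and 0.70 ± 0.14 (adjusted p = 0.021 and 0.0075), and also for Coq8a (-0.94 ± 0.19, adjusted p = 0.0083). SFO against OO was called in 1.06% of genes tested and in 6 of the 87: these 3, Acaa1b, Aldh3a2 and Fgg. Cdo1 and Cbs, which turn cysteine into taurine precursors and homocysteine into cystathionine, fell by 0.53 ± 0.11 and 0.65 ± 0.16 (adjusted p = 0.0028 and 0.03) and were the 2 called of 19 tested methionine and cysteine genes, beside the same 0.384%. Both were called against OO and not against SFO.

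The chow libraries were used to place each gene. CSO was called against chow in 0.409% of all genes tested (0.209% higher, 0.2% lower) and the OO and SFO mean in 1.7% (0.727% higher, 0.969% lower). Both contrasts share the chow libraries with each other and CSO or OO and SFO with the contrast that chose the genes, so that the counts among the 87 describe placement only. In 11 of the 87, CSO differed from chow and the OO and SFO mean was not called, counted as a CSO change. These included Por, Aldh3a2 and Gpt2, higher, and Coq8a, Nr1d1, Gldc, Camk1d, Clpx, Elovl3 and Slc30a10, lower. For Aldh3a2 and Coq8a the mean of the 2 oils hides opposite signs. Against chow, Aldh3a2 stood at 0.55 ± 0.17 in OO and -0.55 ± 0.17 in SFO, neither called. Coq8a stood at 0.61 ± 0.17 in OO (adjusted p = 0.043) and, not called, at -0.32 ± 0.18 in SFO. The authors' deposited tables put Nr1d1 on opposite sides of chow as well, at 0.36 in OO and -0.40 in SFO, neither passing. In 26 genes the OO and SFO mean differed from chow and CSO was not called, 18 higher and 8 lower in CSO. Of these, 17 had a log2 CPM averaging 1 or more, 9 higher and 8 lower. They included Cyp4a14, Acot1, Cyp4a10, Pex11a, Cyp4a12a, Cyp4a12b, Ces1d, Retsat and Usp2, whose OO and SFO mean was below chow, and Fga, Fgb, Fgg, Hsd3b7, Cldn1 and Lrp1, whose mean was above it. Taken alone, OO was not called against chow for Cyp4a14 (adjusted p = 0.072), Cyp4a10 (0.33), Cyp4a12b (0.12), Ces1d (0.071) and Fga (0.08). SFO alone was not called for Usp2 (0.7), Hsd3b7 (0.94), Cldn1 (0.24) and Lrp1 (0.36). In 49 genes neither was called, and Fads2 was called in both.

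On a scale where 0 is the OO and SFO level and 1 the CSO level, chow stood at 0.989 for Acot1, 0.932 for Retsat, 0.929 for Fgg and 0.83 for Cyp4a14. It stood at 0.0872 for Gpt2, 0.133 for Slc30a10 and 0.176 for Gldc, and near the middle for Atf5 (0.404) and Insig2 (0.385). Over the 87 genes, chow lay between the levels nearer CSO in 39 and between them nearer OO and SFO in 32. It lay beyond CSO in 10 and beyond OO and SFO in 6. Those beyond CSO included Hspb7, Myot, Rtn2, Rpl3l, Ldhb and Gsta2, each higher in CSO with a log2 CPM averaging under 1. Hspb7, Myot, Rpl3l and Ldhb were highest in chow 3, chow 4, chow 5 and CSO 1, the libraries with Acta1, a muscle transcript, over 100 CPM. The difference of chow from the midpoint of the scale was called in 0.652% of genes tested and in 5 of the 87, Hspb7, Myot, Gsta2, Fads2 and Fgb. For the others the test did not tell on which side of the middle chow lay. Hspb7 and Myot did not pass the count filter without the Acta1 libraries, so their place could not be checked there. Fads2, the Δ6 desaturase of polyunsaturated fatty acid synthesis, was at 1454, 2207 and 2535 CPM (lowest, median, highest) in CSO, 1388, 1450.2 and 2229 CPM in OO, 1108, 1410.0, 1613, 974 and 1491 CPM in SFO and 519, 729 and 1103 CPM in chow. CSO overlapped OO and SFO, and its log2 fold change was 0.54 ± 0.13 against their mean (adjusted p = 0.036, a call lost in 13 of 23 left-out libraries, with voom at 0.14 and with the clock score at 0.68) and 1.46 ± 0.16 against chow (adjusted p = 6.8e-08). Fads2 was not called against OO alone.

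The placement of single genes depended on the libraries. With each of the 23 libraries left out in turn, CSO against chow was called in all 23 fits for Aldh3a2 and Slc30a10, in 18 for Clpx, 16 for Camk1d, 15 for Gldc, Nr1d1 and Coq8a, 14 for Elovl3, 12 for Gpt2 and 10 for Por. The mean of OO and SFO against chow was called in all 23 for Cyp4a14, Acot1, Pex11a, Ces1d, Cyp4a12a, Retsat, Fga, Fgb and Fgg, in 14 for Cyp4a10 and in 11 for Usp2. Without the 4 libraries with Acta1, a muscle transcript, over 100 CPM, 3 of them chow, that call held for Acot1, Ces1d, Cyp4a12a, Retsat, Fgb and Fgg. It was lost for Cyp4a14 (adjusted p = 0.058), Pex11a (0.3), Fga (0.28), Cyp4a10, Cyp4a12b, Usp2, Hsd3b7, Cldn1 and Lrp1. In the authors' deposited tables of each oil against chow, 19 of the 87 genes had an adjusted p under 0.05 for CSO, 32 for OO and 22 for SFO.

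**Figure D3:**
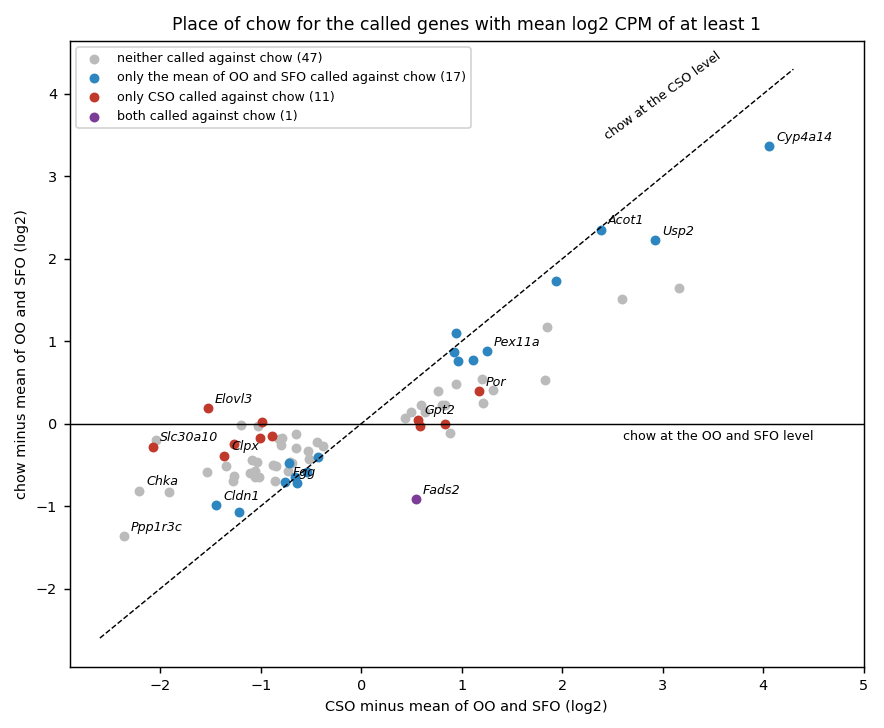
Difference of chow from the OO and SFO mean (y axis, log2) against that of CSO (x axis, log2) for the 76 called genes with a log2 CPM averaging 1 or more, coloured by which diets were called against chow. On the solid line chow equals OO and SFO, on the dashed line it equals CSO, and Acot1 and Cyp4a14 lie near the dashed line while Gpt2 and Slc30a10 lie near the solid one.

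Stearoyl-CoA desaturase and most other lipid genes chosen for naming did not pass the test. Scd1, which makes monounsaturated fatty acids, was at 5346, 7107 and 11993 CPM (lowest, median, highest) in CSO, 6908, 14448 and 19475 CPM in OO and 4139, 4077, 5942, 4499 and 9879 CPM in SFO. The ranges overlapped, and the log2 fold change was -0.24 ± 0.22 (adjusted p = 0.84), with -0.89 against OO and 0.41 against SFO. Fasn had -0.47 ± 0.25 (adjusted p = 0.57), Elovl5 -0.40 ± 0.12 (adjusted p = 0.12), Fads1 0.15 ± 0.12 (adjusted p = 0.78), Apoa4 -0.50 ± 0.24 (adjusted p = 0.49) and Cyp7a1 0.64 ± 0.41 (adjusted p = 0.68). The values of Srebf1 and Elovl6 were -0.04 ± 0.20 and 0.06 ± 0.20 (adjusted p = 0.99 and 0.98), and those of Lpl and Angptl4 were 0.82 ± 0.56 and 0.40 ± 0.40. Apoa4, Fads1 and Cpt1a were called in CSO against chow, by 2.02, 0.87 and 0.55, and were not told apart from the other oils. By edgeR, DESeq2 and voom 0 of 9 tested genes of the mevalonate pathway and 0 of 11 sterol ring enzymes were called, with 0 at an unadjusted p under 0.05 and medians of -0.12 and 0.05. Of 24 tested CAR and PXR targets, Por and Gsta2 were called higher, where 0.342% of all genes tested were, and the list median was 0.09. Gsta2 was not called against SFO. Of 14 NRF2 targets edgeR called 0, with 4 at an unadjusted p under 0.05, where 1207 of the 11971 genes tested were. DESeq2 and voom each called 1 of these targets. Of 21 endoplasmic reticulum folding genes edgeR, DESeq2 and voom called 0, with 8 at an unadjusted p under 0.05, beside the same 1207 of 11971. The list median was -0.32, and 0.02 with the clock score as a covariate.

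**Figure D4:**
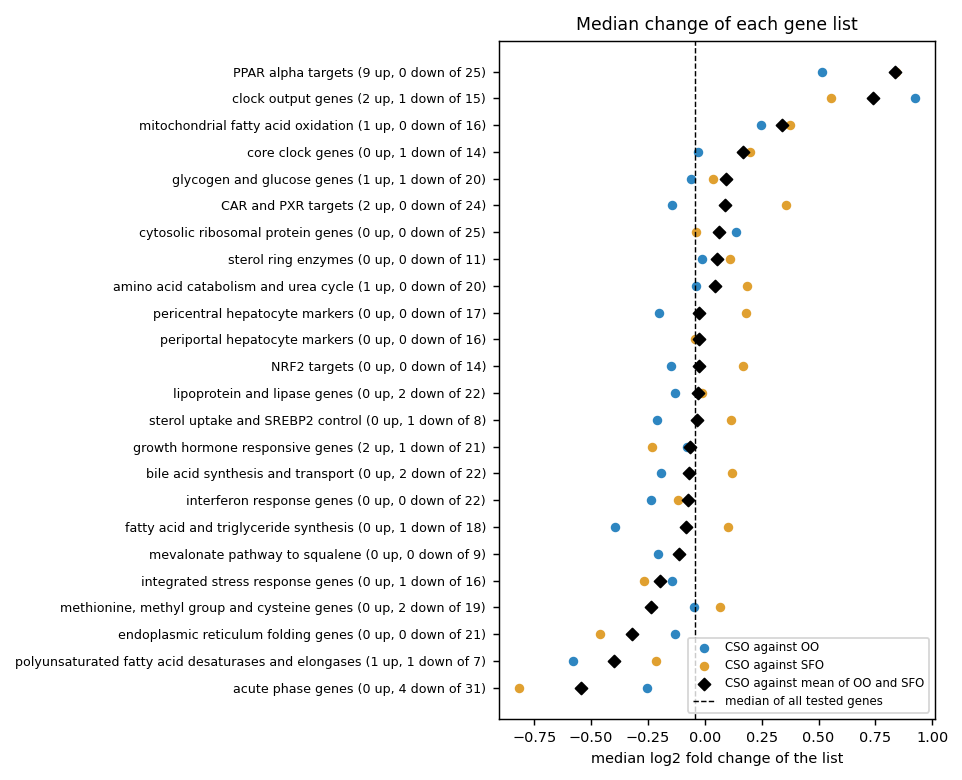
Median log2 fold change of each pathway list (cell type marker lists are not plotted) in CSO against OO, against SFO and against their mean, with the number of called genes beside the list name and the median of all genes tested as a dashed line. Among the lists plotted, PPAR alpha targets have the highest median (0.83) and acute phase genes the lowest (-0.55).

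Of 15 tested clock output genes 3 were called, and of 14 tested core clock genes 1, where 0.727% of all genes tested were. A clock score, the mean log2 CPM of Per2, Per3, Tef, Dbp and Ciart minus that of Clock, Arntl, Npas2 and Nfil3, was 3.92 ± 0.64 (SD, n = 6) in CSO with a range of 2.90 to 4.82. It was 1.21 ± 1.54 (n = 6) in OO with a range of -0.71 to 3.74, 1.71 ± 2.37 (n = 5) in SFO with a range of -1.75 to 4.17, and 1.48 ± 1.76 (n = 6) in chow with a range of -1.55 to 2.75. The score was not tested between diets, and 3 OO and SFO libraries lay within the CSO range. Of the clock output genes, Usp2 and Por were higher and Avpr1a was lower, and the median of the list was 0.74. The called core clock gene was Nr1d1, the repressor REV-ERB alpha. Usp2, a deubiquitinase driven by the clock, was at 64.3, 76.3 and 126 CPM (lowest, median, highest) in CSO, 2.62, 3.33 and 18.8 CPM in OO, 6.18, 29.4, 57.2, 1.06 and 8.15 CPM in SFO and 15.8, 56.4 and 78.2 CPM in chow. CSO lay above all OO and SFO libraries and overlapped chow, with a log2 fold change of 2.92 ± 0.55 (adjusted p = 0.0089). Usp2 was called against OO (3.82, adjusted p = 0.0084) and not against SFO (2.03, adjusted p = 0.36). Nr1d1 was at 46.1 to 92.0 CPM in CSO, 76.6 to 216 CPM in OO and 67.3, 141, 82.3, 84.8 and 88.5 CPM in SFO, and fell by 0.99 ± 0.22 against their mean (adjusted p = 0.0096) and by 1.01 ± 0.24 against chow (adjusted p = 0.034). Nr1d1 was not called against SFO alone.

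With the clock score as a covariate, 23 genes were called, 9 higher and 14 lower, of which 19 were among the 87. The score was chosen in earlier work with values seen, and was higher on average in CSO than in OO and SFO. The covariate thus overlaps with the diet contrast, and the calls lost with it do not measure the part of the clock. Among the 20 genes called against both oils, 12 kept an adjusted p under 0.05 against the mean, among them Cyp4a14 (0.027), Pex11a (0.002), Por (0.011), Ces1d (0.011), Cyp4a12a (0.031), Retsat (0.0021), Fgg (0.011), Mlxipl (0.016), Atf5 (0.011), Clpx (0.027) and Slc30a10 (0.027). The other 8, each given with its log2 fold change and adjusted p under the covariate, were Acot1 (2.25, 0.055), Gpt2 (0.50, 0.1), Cyp4a12b (0.98, 0.061), Camk1d (-1.01, 0.055), Gldc (-0.70, 0.14), Cldn1 (-0.95, 0.13), Chka (-1.46, 0.19) and Insig2 (-0.76, 0.055). Without the covariate the log2 fold change was 2.38 for Acot1, 0.56 for Gpt2, -1.44 for Cldn1, -2.21 for Chka and -1.34 for Insig2, so that it moved by over 1.5 times for the last 3 and less for Acot1 and Gpt2. No called gene changed sign, which their choice from the same libraries made likely. Of the 9 called PPAR alpha targets, 4 kept the call, and the median of the list was 0.63. With this covariate CSO against chow was not called for Aldh3a2 (adjusted p = 0.056), Nr1d1 (0.087), Slc30a10 (0.1), Elovl3, Gpt2, Camk1d, Gldc, Por, Coq8a or Clpx.

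**Figure D5:**
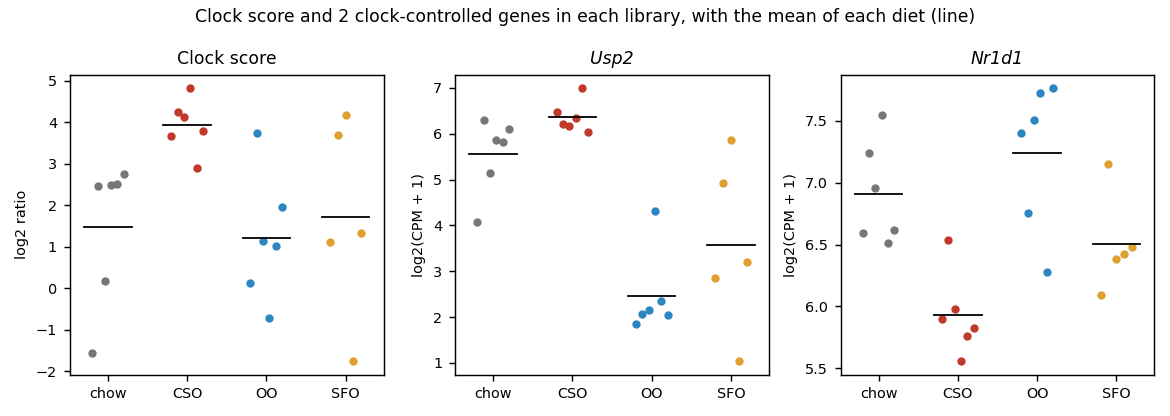
Clock score (log2 ratio) and the levels of Usp2 and Nr1d1 as log2(CPM + 1) in each library (points) with the mean of each diet (line). The 6 CSO libraries lie between 2.90 and 4.82 on the score, while OO, SFO and chow each span a wider range.

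Skeletal muscle transcripts were present in some libraries. Their summed level was 1814 CPM in CSO 1 and 4.0 to 110.3 CPM in the other CSO libraries, 0.641 to 25.8 CPM in OO, 2.51 to 81.3 CPM in SFO and up to 4099 CPM in chow, where Acta1 exceeded 100 CPM in chow 3, 4 and 5. Of 19 tested skeletal muscle markers, whose median log2 fold change was 4.49, edgeR called 1, DESeq2 10 and voom 0. Of all genes tested, edgeR called 0.727%. Of the 87 called genes, 11 had a log2 CPM averaging under 1 over the oil libraries, all of them higher in CSO. Without CSO 1, 8 of these lost their call, counting genes that the filter then left untested. Among them is Myot, a protein of the muscle Z-disc, at 18.6 CPM in CSO 1 and at most 0.26 CPM in the other CSO libraries. Gsta2, a glutathione transferase with near-identical copies, was at 0.21, 5.56 and 31.2 CPM (lowest, median, highest) in CSO and 0 to 5.46 CPM over OO and SFO, and lost its call without CSO 5. Without the 4 libraries where Acta1 exceeded 100 CPM there were 42 calls, of which 40 were among the 87. All 20 genes called against both oils kept their call against the mean there, and 12 were called against both oils. Without those libraries CSO against chow was still called for Slc30a10 (adjusted p = 0.035) and Fads2 (1.6e-05). It was lost there for Clpx (0.074), Camk1d (0.22), Aldh3a2 (0.24), Elovl3 (0.28), Gldc (0.32), Por (0.35), Coq8a (0.55), Gpt2 (0.66) and Nr1d1 (0.66).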

How the data were processed

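The submitters' processing notes name Trimmomatic for trimming, STAR 2.7.1a for alignment, HTSeq 0.9.1 for counting, the build mm39, and the packages DESeq2 and DESeq. The authors deposited raw counts per gene for 23 libraries (13686 genes, smallest total count 51) and 3 tables of chow against 1 oil diet, from which the deposited log2 fold change, with its sign turned, and the deposited adjusted p-value were read. No source used here gives the strand setting of the counting, so overlapping and antisense genes cannot be told apart, and members of multigene families share reads. SFO_4, which the submitters set aside as an outlier, was not analysed here.

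Counts were fitted in R 4.3.3 with edgeR 4.0.16 (TMM scaling, filterByExpr by diet, robust quasi-likelihood F test), all 4 diets together with no covariate. The filter kept 11971 genes with 99.9% of the counts. The contrast was CSO minus the OO and SFO mean. CSO minus OO, CSO minus SFO, each against chow, and chow minus the midpoint came from the same fit. Adjusted p is Benjamini-Hochberg over the genes tested, with a threshold of 0.05, and SE is the log2 fold change over the square root of F. CPM uses TMM-scaled totals, and log2 CPM a prior count of 2. The model was tested on simulated data. Replicate numbers did not pair libraries, so they entered an alternative only. Other settings were DESeq2 1.42.0 size factors and Wald test, library totals, limma 3.58.1 voom, other count filters, the oil diets alone, each library left out, the libraries with Acta1 over 100 CPM left out, and the clock score as a covariate.

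Named were the genes called against both oils, the 12 largest rises and falls with a log2 CPM averaging 1 or more, up to 4 called members per list, lipid genes chosen whatever their result and markers that set a library apart. A few of these genes are not reported here. The members and gene lists were chosen with earlier results of these data known. Promoter windows came from RefSeq (GRCm38.p6) by symbol, another build than that of the counts, and figures from Python 3.11.15 with matplotlib 3.10.9.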

Additional observations from a re-analysis of the deposited data

Results flagged for a closer look

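In 21 of the 268 groups of one named gene in one diet, a single library stood further from the rest than Dixon's 95% critical value allows. Chance alone flags about 1 in 20 groups. Each is given as its level with the range of the other libraries of that diet. Myot, a muscle gene, was at 18.6 CPM in CSO 1 against 0 to 0.26, the library with the highest sum of muscle transcripts among CSO, and at 0.19 CPM in SFO 6 against 0 in the other SFO libraries.

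The libraries that stood high were Usp2 in OO 4 (18.8 CPM against 2.62 to 4.13), Acot4 in CSO 6 (87.3 CPM against 28.6 to 35.0), Cyp4a12b in SFO 1 (83.3 CPM against 41.8 to 45.8), Ces1d in OO 2 (672 CPM against 400.1 to 485) and Fads2 in OO 2 (2229 CPM against 1388 to 1518). Also high were Hsd3b7 in SFO 2 (674 CPM against 480.1 to 524), Pnp in chow 1 (65.0 CPM against 27.8 to 36.6), Tjp3 in chow 3 (51.7 CPM against 28.9 to 35.8), Ppp1r3c in CSO 4 (26.5 CPM against 7.27 to 11.6) and Fasn in SFO 6 (1151 CPM against 516 to 645). The libraries that stood low were Slc16a5 in chow 1 (1.09 CPM against 8.31 to 14.5), Acot1 in CSO 3 (24.8 CPM against 55.4 to 75.0), Pex11a in chow 6 (88.4 CPM against 146 to 194), Pdxk in OO 3 (4.01 CPM against 36.6 to 61.5), Lbp in SFO 6 (59.1 CPM against 162 to 228), Camk1d in chow 5 (65.4 CPM against 119.7 to 161), Ccn1 in OO 6 (4.42 CPM against 31.3 to 95.1), Srebf1 in chow 1 (93.7 CPM against 153 to 193) and Cyp7a1 in chow 1 (68.1 CPM against 184 to 283). OO 2 stood high for both Ces1d and Fads2, and chow 1 stood apart for 4 genes.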

How the results depend on the processing

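The number of calls moved with the setting. Over 33 settings none of the 87 genes changed sign, which choosing them for a difference in these same libraries made likely. With each of the 23 libraries left out 37 kept the call, and 15 kept it in every setting. The count of 87 became 196 with DESeq2, 171 with voom, 55 with the oil diets alone, 42 without the libraries with Acta1 over 100 CPM (fewer samples), 23 with the clock score as a covariate, and 53 to 116 with 1 library left out (53 without CSO 4, 57 without CSO 5, 56 without CSO 6). It was 95 with DESeq2's size factors, 101 with library totals, 109 with no filter and 90 with at least 10 counts in 5 libraries. The 20 genes called against both oils became 41 with DESeq2, 31 with voom, 12 without the Acta1 libraries, 5 with the clock score and 11 to 27 with 1 library left out (11 without CSO 6). The 12 also called for CSO against chow became 26, 47, 3 and 1 in those 4 settings and 3 to 19 with 1 library left out: 3 without CSO 4 or CSO 6, 5 without chow 1, chow 3, CSO 1 or CSO 5, 6 without chow 2 or CSO 3, and 19 without OO 2. The 27 also called for the OO and SFO mean against chow became 71 with DESeq2, 8 without the Acta1 libraries, 10 with the clock score and 18 to 48 with 1 library left out (48 without SFO 6). The median of all genes moved from -0.04 to 0.11 with voom. The cause of these differences was not tested.

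Libraries with the same replicate number did not deviate together (33 pairs across diets, r from -0.10 to 0.035), and 1 library correlated best with its own number. With the replicate number as a block, 78 genes were called, 66 of them among the 87, 25 against both oils, and 12 and 21 in the 2 comparisons with chow.

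Among named genes, 5 lipid genes changed sign in a setting, none of them called there. With the clock score the log2 fold changes were -0.00884 for Fads1, -0.0547 for Elovl6, -0.0165 for Ppara and -0.218 for Cyp7a1 (0.64 without it). With library totals and without the Acta1 libraries they were 0.0419 and 0.0426 for Srebf1. With 1 library left out, Elovl6 ran from -0.14 to 0.186 (reversed in 4 of 23) and Srebf1 from -0.132 to 0.0703 (5 of 23). Of list medians given above, that of sterol ring enzymes became -0.01 with voom. With the clock score, that of endoplasmic reticulum folding genes became 0.02 and that of clock output genes -0.19. The clock output list shares Dbp, Tef, Ciart and Nfil3 with the score, so the move of its median was in part built in. Other named calls lost in left-out libraries were those of Lrp1 (11 of 23), Acot4 (6), Cyp4a10 and Cbs (5), Elovl3 (4), Lbp, Slc27a2, Trf and Ctsl (3), Pdxk (2), and Ucp2, Nr1d1, Bnip3 and Serpinf2 (1).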

Other observations

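Some called genes outside the lists, named after their values were seen, encode plasma proteins made by hepatocytes. Itih1, an inter-alpha-trypsin inhibitor heavy chain, was at 612 to 694 CPM in CSO and 697 to 1336 CPM over OO and SFO without overlap, a log2 fold change of -0.44 ± 0.11 (edgeR adjusted p = 0.043), a call lost in 12 of 23 left-out libraries. Serpinf2, the plasmin inhibitor, fell by 0.53 ± 0.12 (adjusted p = 0.0097), with chow at the CSO level (0.05 ± 0.13 for CSO against chow). Trf, transferrin, listed as Tf among the hepatocyte markers and so not counted there, fell by 0.38 ± 0.086 (adjusted p = 0.013).

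Other called genes touch lysosomes, mitochondria and vitamin handling. Ctsl, a lysosomal protease, was at 259.8 to 376 CPM in CSO and 381 to 546 CPM over OO and SFO without overlap (-0.52 ± 0.12, adjusted p = 0.024). Bnip3, a receptor for the removal of mitochondria, rose by 0.77 ± 0.18 (adjusted p = 0.018), and Bbox1, the last enzyme of carnitine synthesis, by 0.64 ± 0.16 (adjusted p = 0.036), a call lost in 11 of 23 left-out libraries. Nampt, of NAD salvage, rose by 0.88 ± 0.23 (adjusted p = 0.045), a call lost in 19 of them. Neat1, the RNA scaffold of paraspeckles, fell by 1.22 ± 0.24 (adjusted p = 0.0044), and the OO and SFO mean was above chow by 1.07 ± 0.24 (adjusted p = 0.0091).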
